A study of Mus musculus with 3 samples.

Results

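The genes described here encode carriers of hexoses and amino acids in the endothelial cells of the adult mouse renal medulla. They were chosen by name, as all genes of the solute carrier families Slc1, Slc2, Slc3, Slc7, Slc36, Slc38 and Slc43 with an array probe set that names 1 gene. This rule uses no measured value, although it was set when earlier results of these data were known. This gave 54 of the 19938 genes on the array, and they are all 54 protein-coding genes that the RefSeq annotation lists under these family names. A gene with several probe sets was represented by the one with the highest mean, which applied to 2 genes. Medulla of adult male FVB/N mice with the Tg(TIE2GFP)287Sato transgene was digested with collagenase A and the GFP-positive cells were sorted. In this transgene the Tie2 promoter drives the fluorescent protein. The 3 samples, each made from 2 kidneys, belong to 1 untreated group, so that levels were compared with fixed limits and not with another tissue or treatment. Tie2 is also active in some myeloid cells, which such a sort can hold.

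Hexoses cross membranes through the Slc2 (GLUT) carriers by facilitated diffusion, and hexokinase then traps glucose in the cell as its phosphate. Amino acids need many carriers with overlapping substrates: sodium-driven importers that load the cell, exchangers that swap one amino acid for another, and heterodimers in which an Slc3 heavy chain brings an Slc7 light chain to the surface. Slc7a5 with Slc3a2 and the glucose carrier Slc2a1 are known for carrying nutrients across the endothelium of the blood-brain barrier, while the apical and basolateral carriers Slc3a1, Slc7a9, Slc7a7 and Slc2a2 are known for reabsorption in the proximal tubule. In the medulla, vessels lie in hypertonic and poorly oxygenated tissue, and Slc38a2 is known to be induced by hypertonicity and by lack of amino acids.

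Levels are the deposited log2 values, and a level in units is 2 to that power. Each gene was tested against a level of 100 units (log2 6.64), the size of the filter in the study, and against a background limit of log2 7.95 (247 units), the 95th percentile of 1247 probe sets of olfactory, vomeronasal and taste receptors. Probes differ in affinity, so genes were set against these limits and not ranked against each other, and a level under the background limit does not show that a gene was off. In 46.3% of all genes the value was identical in the 3 arrays, and so it was in 25 of the 54 carriers. For these the error in limma rested on the prior alone and no p-value is printed. A further 19 carriers had the same value in 2 of the 3 arrays, and p-values printed for them may be too small. All 12 endothelial markers (10.47 to 13.22) and all 7 markers of the vasa recta lay above the background limit, against 3 of 10 for the proximal tubule (Slc34a1, Slc22a8 and Aqp1, the last also in the vasa recta list), 4 of 7 for the thick ascending limb, 5 of 9 for the collecting duct, 1 of 7 for pericytes and smooth muscle, 1 of 8 for leukocytes, and 2 of 5 for red cells and platelets. With 52.5% of all genes above this limit, these counts do not show whether RNA of the other cell types was present, and fewer cells of a type cannot be told apart from less RNA per cell.

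A few carriers lay far above the background limit, and most lay near or below it. By limma with Benjamini-Hochberg adjustment over all genes, 51 of the 54 carriers were above 100 units, where 84.5% of all genes were, and 3 were below, where 13.7% were. Above the background limit were 20 carriers (37.0%), against 52.5% of all genes, while 31 were below it, against 41.4%, and 3 could not be told from it. The median level was 7.85 over the carriers and 8.15 over all genes. This gap in shares depended on where the limit was set. At the 90th percentile of the receptor probe sets 34 carriers were above it (63.0%, against 63.4% of all genes), and at the 99th percentile 7 were (12.96%, against 30.1%). Counted by array, 51 carriers reached 100 units in every array (85.4% of all genes did), and 22 carriers reached the background limit in every array (40.7%, against 54.9% of all genes). Levels of 1 log2 unit or more above the limit were found for 7 carriers: the hexose carrier Slc2a1, the heavy chain Slc3a2, the cationic carrier Slc7a1, the lysosomal or proton-coupled carriers Slc36a4 and Slc38a9, the sodium-coupled carrier Slc38a2, and the purine carrier Slc43a3. Another 19 lay within 0.3 log2 units of the limit on either side, which 18.3% of all genes did. When limma drew its prior only on genes that differed in every array (the alternative prior), 10 of these 19 lost their call against the limit, Slc2a13 and Slc7a7, farther from it, gained one, and 18 of the 20 carriers above it remained.

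**Figure D1:**
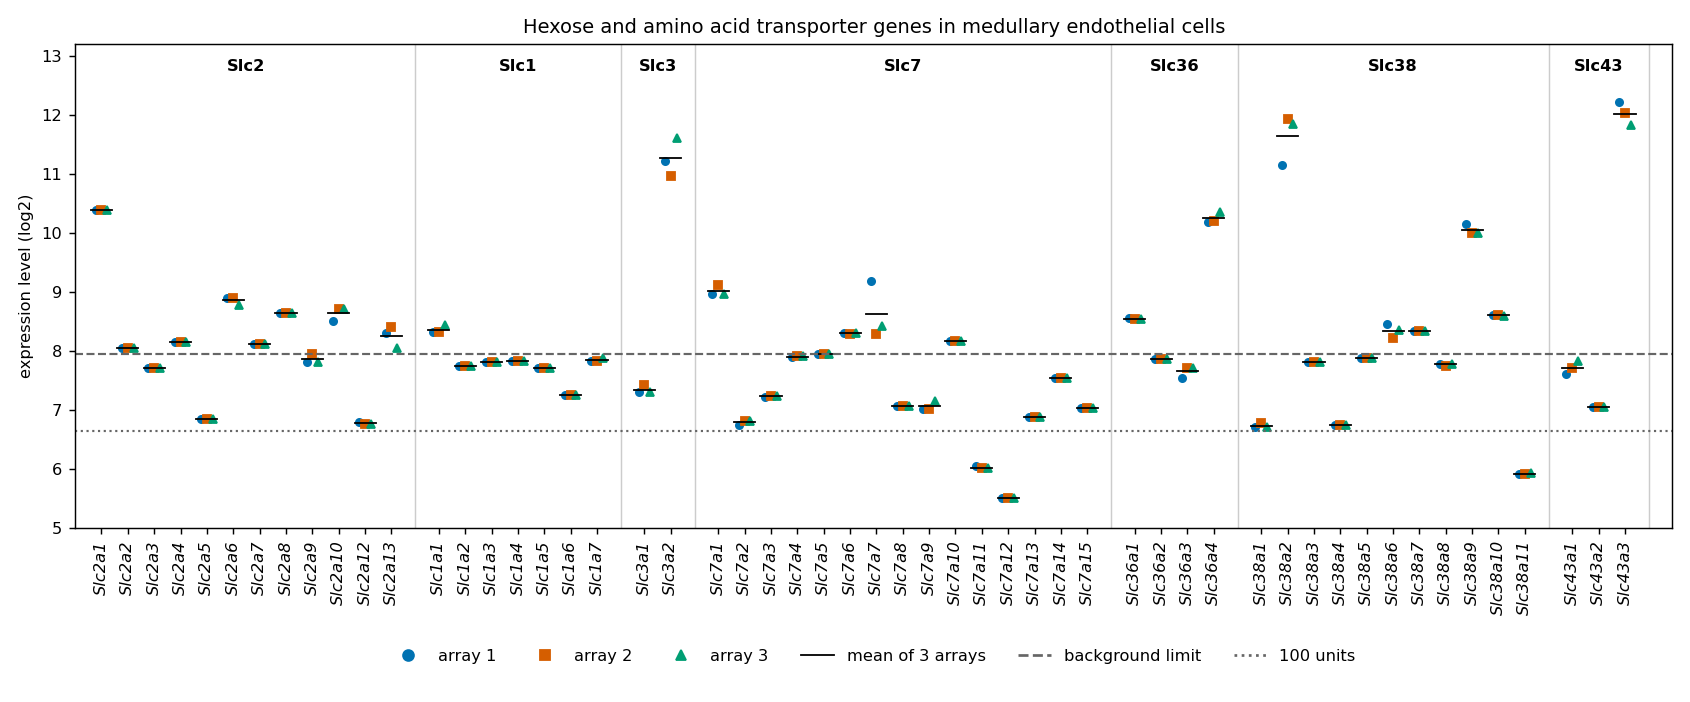
Level (y axis, log2) of the 54 carrier genes (x axis, by family), with 1 point per array, the mean of 3 arrays as a bar, and dashed and dotted lines at the background limit (7.95) and 100 units (6.64). Slc2a1, Slc3a2, Slc36a4, Slc38a2, Slc38a9 and Slc43a3 stood 2 log2 units or more above the background limit, Slc7a1 stood 1.07 above it, and Slc7a11, Slc7a12 and Slc38a11 were below 100 units.

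Among the hexose carriers, the GLUT1 gene Slc2a1 was at 10.39 in all 3 arrays (1341 units), 2.44 above the background limit. This is the carrier that endothelial cells are best known for. The GLUT3 gene Slc2a3, best known from neurons, was at 7.70 in all arrays, and the insulin-responsive GLUT4 gene Slc2a4 was at 8.15 in all arrays. Both therefore stood within 0.3 of the limit, on opposite sides. The intracellular carriers were above it, with Slc2a8 at 8.64 in all arrays and Slc2a6 at 8.89, 8.89 and 8.77 (8.85 ± 0.07, SD, n = 3, adjusted p = 0.00118 by limma). Slc2a10, the gene mutated in arterial tortuosity syndrome, had 8.50, 8.71 and 8.71 in arrays 1, 2 and 3 (8.64 ± 0.12, adjusted p = 0.0068 by limma), with array 1 below the other two and all above the limit. This call was lost when array 2 or array 3 was left out.

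The promoter of Slc2a1 is shown because the gene is a known target of hypoxia-inducible factors and stood far above the limit. The stretch is the 250 bases before the start site in RefSeq (GRCm38.p6, chr4:119108495-119108744, plus strand), and capitals mark the matches to the hypoxia response core, ACGTG or GCGTG on either strand.
Slc2a1: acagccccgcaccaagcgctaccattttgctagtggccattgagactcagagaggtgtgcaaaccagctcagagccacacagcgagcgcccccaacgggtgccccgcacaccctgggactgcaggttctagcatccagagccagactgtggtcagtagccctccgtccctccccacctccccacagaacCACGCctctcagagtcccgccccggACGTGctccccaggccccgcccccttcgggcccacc
It held 2 matches, starting 61 and 36 bases before the start site. Such a short motif is common, with a match in 38.6% of 32851 promoter stretches of the same 250 bases before a start site, and in 24 of the 52 stretches of the 41 carriers listed there. A match is a description of the letters and not a site of binding.

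The other hexose carriers spread around both limits. The liver and tubule carrier Slc2a2 (GLUT2) was at 8.05 and Slc2a7 at 8.12 in all arrays, and both lost their call above the background limit with the alternative prior. The myo-inositol carrier Slc2a13 had 8.30, 8.41 and 8.04 (8.25 ± 0.19, SD, n = 3), above the limit in every array, but could not be told from it (adjusted p = 0.0894 by limma), and was called above it with the alternative prior and after recentring of the arrays. The urate carrier Slc2a9 had 7.81, 7.95 and 7.81, with array 2 reaching the limit (adjusted p = 0.168 by limma). The fructose carrier Slc2a5 was at 6.84 in all arrays and Slc2a12 at 6.80, 6.75 and 6.75, both above 100 units and more than 1 log2 unit below the background limit. The Slc2a12 call above 100 did not hold with the alternative prior. In all, 7 of the 12 hexose carriers were above the background limit (6 with the alternative prior), a share near the 52.5% of all genes, while 3 were below and 2 were neither.

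The Slc1 family, which holds the glutamate carriers and the neutral exchangers ASCT1 and ASCT2, lay close to the background limit. The epithelial and neuronal glutamate carrier Slc1a1 (EAAT3) was the member above it, with 8.32, 8.32 and 8.43 (8.36 ± 0.06, SD, n = 3, adjusted p = 0.0052 by limma), and this call was lost without array 1 or without array 2. The glial carriers Slc1a2 and Slc1a3 were at 7.74 and 7.81, the neutral exchanger Slc1a4 (ASCT1) at 7.83, and the glutamine exchanger Slc1a5 (ASCT2) at 7.71, each with the same value in all arrays. The retinal carrier Slc1a7 had 7.82, 7.82 and 7.87, and Slc1a6 of cerebellar neurons was at 7.25. These 6 were below the limit in every array, but Slc1a3, Slc1a4 and Slc1a7 could not be told from it with the alternative prior, and Slc1a7 also not without array 1 or array 2.

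The heavy and light chains of the heterodimeric exchangers differed in their distance from the limits. The general heavy chain Slc3a2 (4F2hc, CD98) had 11.22, 10.97 and 11.61 in arrays 1, 2 and 3 (11.27 ± 0.32, SD, n = 3), 3.32 above the background limit (adjusted p = 0.00206 by limma). Array 3 was the highest and array 2 the lowest, and every array stood over 3 log2 units above the limit, although without array 1 the remaining pair gave no call. The renal and intestinal heavy chain Slc3a1 (rBAT), which is mutated in cystinuria, had 7.29, 7.42 and 7.29 (7.33 ± 0.07), below the limit in every array (adjusted p = 0.00321 by limma) and without a call when array 1 or array 3 was left out.

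Of the light chains that pair with Slc3a2, Slc7a6 (y+LAT2), an exchanger of cationic for neutral amino acids, was above the background limit, with 8.30, 8.28 and 8.30 (8.29 ± 0.01, SD, n = 3, adjusted p = 0.000244 by limma). The glycine and serine carrier Slc7a10 (Asc-1), known from neurons and glia, was also above it at 8.17 in all arrays. The LAT1 gene Slc7a5, the large neutral amino acid carrier of the blood-brain barrier, was at 7.94 in all arrays, 0.0054 below the limit. Such a distance cannot be resolved here, and its call below the limit ended with the alternative prior and with both other normalizations. The LAT2 gene Slc7a8 was at 7.06 in all arrays. Slc7a7 (y+LAT1), which is mutated in lysinuric protein intolerance, had 9.18, 8.28 and 8.42 and is described with the differences between arrays. The cystine and glutamate exchanger Slc7a11 (xCT) had 6.04, 6.01 and 6.01 (6.02 ± 0.02), below 100 units in every array (adjusted p = 0.000127 by limma).

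The promoters of Slc7a11 and Slc3a2 are shown together because the products form 1 exchanger, the genes are known targets of the amino acid starvation factor ATF4, and their levels lay on opposite sides of both limits. Both stretches are the 250 bases before the start site in RefSeq (GRCm38.p6, minus strand), at chr3:50443614-50443863 for Slc7a11 and chr19:8713898-8714147 for Slc3a2. Capitals mark the C/EBP-ATF composite element TGATGNAA in Slc7a11 and the hypoxia response core in Slc3a2, each on either strand.
Slc7a11: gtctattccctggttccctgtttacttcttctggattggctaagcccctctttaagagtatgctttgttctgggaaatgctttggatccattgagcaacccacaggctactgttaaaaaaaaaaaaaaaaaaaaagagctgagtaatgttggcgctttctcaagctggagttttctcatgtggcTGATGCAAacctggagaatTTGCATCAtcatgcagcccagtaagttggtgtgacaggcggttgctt
Slc3a2: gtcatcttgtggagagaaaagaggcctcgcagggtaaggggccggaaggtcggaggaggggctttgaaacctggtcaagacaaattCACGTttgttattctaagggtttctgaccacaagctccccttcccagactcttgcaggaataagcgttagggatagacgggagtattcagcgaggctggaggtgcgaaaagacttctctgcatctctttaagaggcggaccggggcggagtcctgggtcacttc
Slc7a11 held 2 composite elements in opposite orientation, starting 66 and 47 bases before the start site. The element was found in 3.45% of all 32851 stretches and in those of 2 of the 41 carriers, Slc7a11 and Slc7a7. The stretch of Slc3a2 held none, and it had 1 match to the hypoxia response core, 164 bases before the start site.

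The remaining light chains were below the background limit. Slc7a9 (b0,+AT), the partner of Slc3a1 at the tubule brush border, had 7.01, 7.01 and 7.14 (7.05 ± 0.08, SD, n = 3, adjusted p = 0.00156 by limma), a call lost without array 2, and Slc7a13 of the proximal tubule was at 6.88 in all arrays. Slc7a15 was at 7.03 and Slc7a12 (Asc-2) at 5.49 in all arrays, the latter below 100 units. Of the 10 light chains 2 were above the background limit, where 52.5% of all genes were. Below it were 7, where 41.4% of all genes were, and 1 was neither. With the alternative prior Slc7a5 was no longer below it, and Slc7a7 moved from neither to above.

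Of the cationic carriers that work without a heavy chain, the CAT1 gene Slc7a1, which brings in arginine, was above the background limit. It had 8.96, 9.11 and 8.96 (9.01 ± 0.09, SD, n = 3), 1.07 above the limit (adjusted p = 0.00139 by limma). Its relatives were below it: Slc7a4 at 7.89, 7.91 and 7.91, Slc7a14 of the lysosome at 7.54 in all arrays, the CAT3 gene Slc7a3 at 7.22 in each array, and the CAT2 gene Slc7a2, inducible in macrophages, at 6.74, 6.81 and 6.81. The call for Slc7a4 ended with the alternative prior and without array 2 or array 3, and so did the call of Slc7a2 above 100 units.

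The sodium-coupled neutral carriers held a gene far above the limit and several near or below it. Slc38a2 (SNAT2) had 11.14, 11.93 and 11.84 in arrays 1, 2 and 3 (11.64 ± 0.43, SD, n = 3), 3.69 above the background limit (adjusted p = 0.00302 by limma). Array 1 was 0.75 below the mean of the other two. All arrays stood over 3 log2 units above the limit, although the call was lost when array 2 or array 3 was left out. Slc38a10, a carrier of the same family, had 8.61, 8.61 and 8.58 (adjusted p = 9.9e-05 by limma), Slc38a7, a lysosomal glutamine carrier, 8.33 in all arrays, and Slc38a6 had 8.45, 8.21 and 8.35 (8.34 ± 0.12, adjusted p = 0.0209 by limma), a call that was lost whichever array was left out. The glutamine carriers of liver, kidney and brain, Slc38a3 and Slc38a5, were at 7.80 and 7.87 in all arrays, below the limit but not with the alternative prior. Slc38a8, known from the eye, had 7.78, 7.74 and 7.78, and its call below the limit was lost without array 1 or array 3. Slc38a4, known from the liver, was at 6.74 in all arrays, and Slc38a11 had 5.91, 5.91 and 5.93, below 100 units (adjusted p = 5.48e-05 by limma).

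Slc38a1 (SNAT1), the neuronal glutamine importer, was measured by 2 probe sets on opposite sides of 100 units. One had 6.70, 6.76 and 6.71 and represented the gene, and the other was at 6.51 in all arrays, so that its call above 100 turned with the lower probe set, and it was lost with the alternative prior. Slc38a9, the arginine sensor of the lysosome that signals to mTORC1, also had 2 probe sets. They gave 10.14, 9.99 and 9.99 (10.04 ± 0.09, SD, n = 3, adjusted p = 0.000365 by limma) and 9.87, 9.50 and 9.66 (9.68 ± 0.18). Both stood above the background limit in every array.

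Among the proton-coupled carriers, Slc36a4 (PAT4) had 10.18, 10.20 and 10.35 (10.24 ± 0.09, SD, n = 3), 2.30 above the background limit (adjusted p = 0.000344 by limma). Slc36a1 (PAT1), which exports amino acids from lysosomes, had 8.55, 8.54 and 8.54 (adjusted p = 4.11e-05 by limma). Slc36a2, a glycine and proline carrier of the kidney, and Slc36a3, known from the testis, were below the limit, with 7.86 in all arrays for the former and 7.53, 7.71 and 7.71 for the latter. The call for Slc36a2 ended with the alternative prior, and that for Slc36a3 when array 2 or array 3 was left out. Of 5 carriers known from the lysosome membrane, namely Slc36a1, Slc36a4, Slc38a7, Slc38a9 and Slc7a14, the first 4 were above the background limit, against 52.5% of all genes.

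In the Slc43 family, Slc43a3 had 12.21, 12.03 and 11.82 in arrays 1, 2 and 3 (12.02 ± 0.19, SD, n = 3), 4.07 above the background limit (adjusted p = 0.000479 by limma). Its product is known to carry purine nucleobases and not amino acids. The facilitative carriers of branched-chain amino acids lay below the limit. Slc43a1 (LAT3) had 7.60, 7.70 and 7.82 (7.71 ± 0.11, adjusted p = 0.0478 by limma), and this call was lost whichever array was left out and with trend and robust settings. Slc43a2 (LAT4) was at 7.04 in all arrays.

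Most carriers hardly differed between the arrays. Of the 54, 5 had a range over 0.3 log2 units (9.26%, against 14.4% of all genes), and those were Slc7a7, Slc38a2, Slc3a2, Slc43a3 and Slc2a13. The count was 2 without array 1, 4 without array 2 and 2 without array 3. Slc7a7 was 0.83 higher in array 1 than the mean of the other two, a fold of 1.78, and array 1 stood apart while arrays 2 and 3 were close together. With this spread (8.63 ± 0.49, SD, n = 3) it could not be told from the background limit by limma (adjusted p = 0.114), although every array was above it, and the alternative prior called it above. Array 1 was the highest for markers of more than 1 cell type. Of the 12 endothelial markers 9 were highest there, with a summed level of 60111, 52761 and 54116 units in arrays 1, 2 and 3. The thick ascending limb marker Umod was at 11.61, 10.40 and 9.49, and Slc12a1 at 9.68, 8.07 and 7.81. Of the 7 markers of that segment, 3 were highest in array 1 (Umod, Slc12a1 and Egf), Cldn10 was highest in array 2, Cldn16 was lowest in array 1, and Kcnj1 and Cldn19 did not differ. Their summed level was 5705, 3367 and 2516 units in arrays 1, 2 and 3, and no marker was at 0. The part of either cell type in the Slc7a7 value was not tested. Of the 8 leukocyte markers 7 were below the background limit, and 6 had the same value in all arrays. Their summed level was 1287, 1344 and 1300 units, and its differences came almost only from Lyz2 (142, 198 and 155 units). A part of leukocytes in the Slc7a7 value was not tested. Of the 9 carriers known from the proximal tubule, array 1 was the highest for Slc7a7 alone. However, 5 of the 9 had the same value in all arrays and could not show a shift. A part of this segment in the Slc7a7 value was not tested.

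Slc38a2 moved the other way, with array 1 the lowest. The water channel Aqp1 of the descending vasa recta, which also marks the proximal tubule, had 11.30, 12.18 and 11.86 in arrays 1, 2 and 3, and was likewise lowest in array 1. The urea transporter Slc14a1 of the descending vasa recta had 11.67, 12.08 and 11.84. These were the 2 of 7 vasa recta markers with their lowest value in array 1. Of the others, Efnb2 was highest in array 1 (11.04, 10.81 and 10.85) and Gja4 in array 2 (9.02, 9.31 and 8.89). Ephb4 had 10.43, 10.42 and 10.43, and Plvap (12.00) and Nr2f2 (9.91) did not differ. Over the 7 markers of the vasa recta the summed level was 14863, 17811 and 16137 units, and none was at 0. The low sum in array 1 came from Aqp1 and Slc14a1. Whether the makeup of the vessels had a part in the Slc38a2 value was not tested. With 3 arrays these parallels carry no test.

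**Figure D2:**
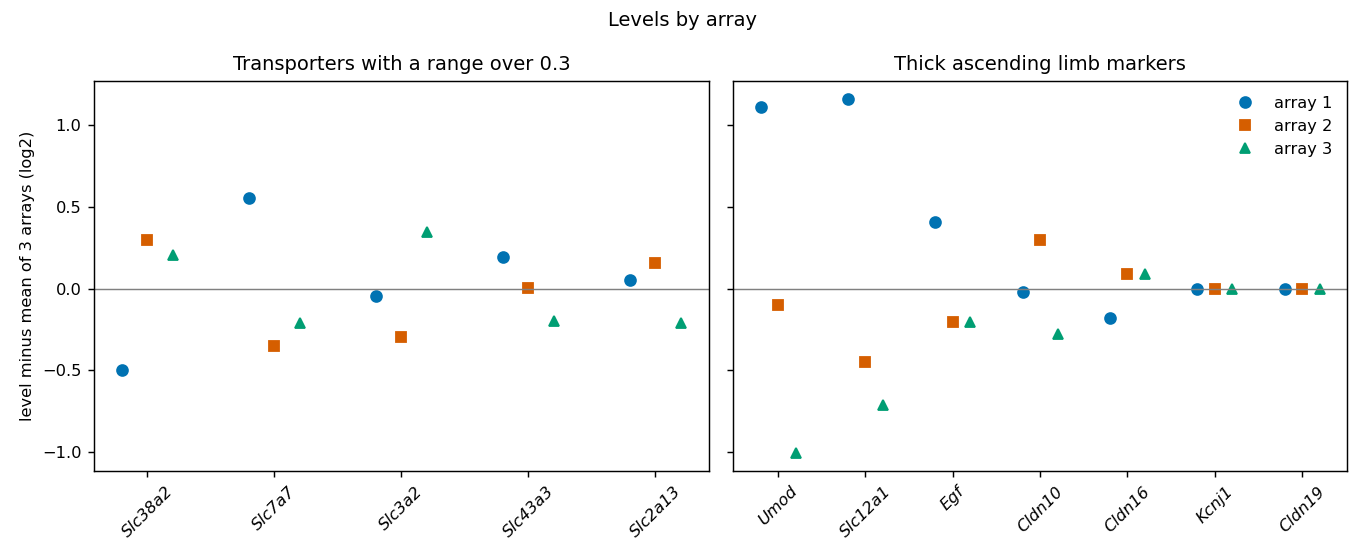
Level minus the mean of the 3 arrays (y axis, log2) for the 5 carriers with a range over 0.3 (left) and the 7 thick ascending limb markers (right), with 1 point per array. Slc7a7, Umod, Slc12a1 and Egf were highest in array 1, while Slc38a2 was lowest there.

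Genes that use or sense the carried nutrients are described by the same counts, with no test between lists. Beside them stand 52.5% of all genes above the background limit and 41.4% below. Calls within 0.3 log2 units of it are uncertain, since 10 of the 19 carriers at such distances lost theirs with the alternative prior. For glucose, 13 of 17 measured genes of trapping and lactate export were above the background limit, 4 were below and their median was 9.34. The hexokinase Hk1 was at 12.32, 12.61 and 12.37, while Hk2 and Hk3 were at 7.32 and 7.80 in all arrays. The phosphofructokinase genes were above the limit, with Pfkl at 9.16, 8.82 and 8.87, Pfkm at 8.60 in all arrays and Pfkp at 8.44, 8.71 and 8.69. The lactate carrier Slc16a1 (7.27 in all arrays) and Slc16a7 (7.80, 7.63 and 7.61) were below it. Of 13 genes of trafficking and control of glucose carriers, 12 were above and 1, Myc at 7.49, 6.88 and 6.88, was below. Txnip, an arrestin that lowers glucose uptake through GLUT1, was at 13.17, 12.69 and 12.74, and the Rab GTPase-activating genes Tbc1d1 and Tbc1d4, known for control of GLUT4 vesicles, were at 9.63 ± 0.08 (SD, n = 3) and 8.09.

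For arginine, 6 of 9 measured genes of its use were above the background limit, 2 were below and 1 was neither. The endothelial nitric oxide synthase Nos3 was at 9.02 in all arrays, Nos2 at 8.48, 8.43 and 8.42, and the argininosuccinate lyase Asl at 8.50 in all arrays. Nos1, at 7.96 in all arrays, was counted above on a distance of 0.012 that cannot be resolved here. The arginases Arg1 (7.93) and Arg2 (7.42 ± 0.01) were counted below the limit, Arg1 on a distance of 0.021 that cannot be resolved either. For glutamine and glutamate, 5 of 8 were above, 1 below and 2 neither, with the glutamine synthetase Glul at 10.11, 9.92 and 9.65, Glud1 at 10.26, 10.23 and 9.71, and Got1 and Got2 at 8.42 ± 0.16 and 9.52, while Gpt2 was at 7.61.

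For cystine, all 9 measured genes of cystine use and glutathione were called above the background limit, while Slc7a11 was below 100 units. The glutamate-cysteine ligase subunits Gclc and Gclm were at 9.85, 9.80 and 9.85 and at 8.88 in all arrays, Gss was at 8.49, Gsr at 8.72 ± 0.05 and Ggct at 8.57. The call for Ggt5, at 7.96 in all arrays, rests on a distance of 0.018 that cannot be resolved here.

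For sensing of amino acids at the lysosome, 17 of 24 genes were above the background limit, 2 were below and 5 were neither. Those below were Rragd at 7.15 and Tfeb at 7.89, the latter by a distance of 0.059. The kinase Mtor was at 9.005 and its partner Rptor at 8.60 in all arrays, Mlst8 at 9.004, 8.30 and 8.51, and the GTPase genes Rheb at 11.92, 11.64 and 11.57 and Rraga at 10.19 in all arrays, while Rragb had 6.70, 7.16 and 7.63. In the starvation response, 9 of 13 genes were above, 3 below and 1 neither. The kinase Eif2ak4 (GCN2) had 8.88, 8.46 and 8.57, Atf4 10.07, 10.18 and 10.07, and Atf5 9.33, 9.46 and 9.33. Ddit3 had 9.94, 9.94 and 10.18, and Trib3 8.11, 8.08 and 8.08. Below were Cebpb (7.89), Vldlr (7.71) and Gpt2, Cebpb by a distance of 0.053. Of 7 carriers known as targets of ATF4, Slc3a2, Slc7a1 and Slc38a2 were above the limit, where 52.5% of all genes were. Slc1a4, Slc1a5, Slc7a5 and Slc7a11 were below, where 41.4% were, the call for Slc1a4 and Slc7a5 ending with the alternative prior.

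**Figure D3:**
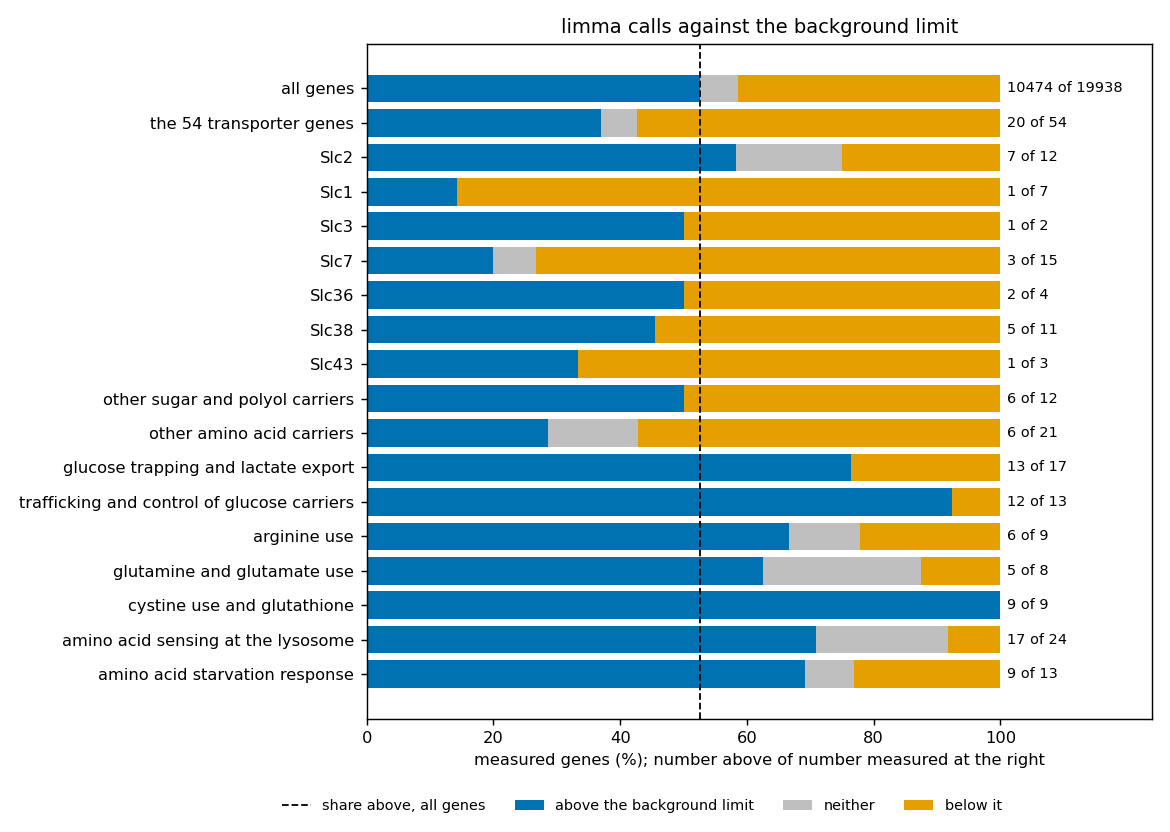
Share of measured genes (x axis, %) that limma called above, below or neither against the background limit, for all genes, the 54 carriers, their families and 9 related gene lists (y axis), with the number above of the number measured at the right. The dashed line marks the 52.5% of all genes above the limit, and the families ran from 1 of 7 in Slc1 and 3 of 15 in Slc7 to 7 of 12 in Slc2, the one family past the line (6 of 12 with the alternative prior).

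Other families carry the same substrates. Of 12 other sugar and polyol carriers 6 were above the background limit and 6 below, beside 52.5% and 41.4% of all genes. The sodium-glucose carriers Slc5a1 and Slc5a2 were at 7.07 and 8.41 in all arrays, and the myo-inositol carrier Slc5a3 had 10.67, 10.88 and 11.02, while Slc5a4a (7.19) and Slc5a8 (7.32) were below and Slc5a9 (8.14) above. Of 21 other amino acid carriers 6 were above, 12 below and 3 neither. The taurine carrier Slc6a6 had 12.43, 12.19 and 11.84, and Slc6a17, Slc6a20a and Slc6a20b, at 8.41, 8.02 and 8.48 in all arrays, were also above. For Slc6a20a the distance from the limit was 0.073. Slc6a7 was above at 8.08 ± 0.05, and the glycine carrier Slc6a9 (8.12, 8.12 and 8.82) was neither. Slc6a5 (7.28), the betaine carrier Slc6a12 (7.80) and Slc6a13 (7.25) were below.

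Set by the tissue they are best known from, the carriers divided as follows, beside 52.5% of all genes above the background limit and 41.4% below. Of 6 known from the blood-brain barrier, Slc2a1, Slc3a2 and Slc7a1 were above the background limit, and Slc7a5, Slc38a3 and Slc38a5 lay 0.0054, 0.15 and 0.07 log2 units below it. Of 9 known from the proximal tubule, Slc1a1 and Slc2a2 were above (calls lost without array 1 or array 2, and with the alternative prior, respectively). Slc7a7 was neither and 6 were below, among them both parts of the cystine carrier, Slc3a1 and Slc7a9. Of the calls below, that of Slc38a3 ended with the alternative prior, that of Slc3a1 without array 1 or array 3, and that of Slc7a9 without array 2. Of the 10 markers of this segment 7 were below the limit, Slc22a6 by a distance of 0.029. Such counts do not show whether RNA of the segment was present. Of 8 known from neurons and glia, Slc7a10 was above and 7 were below. Of these, the calls of Slc1a3 and Slc1a7 ended with the alternative prior, and that of Slc38a8 without array 1 or array 3. Genes of these lists overlap, and the lists were written with earlier results of these data known, so the counts describe the carriers and are not separate tests.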

How the data were processed

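RNA of sorted endothelial cells was measured on 3 Affymetrix Mouse Gene 1.0 ST arrays after 1 round of NuGEN amplification. The authors deposited 1 log2 level for each probe set and array. Expression Console is the software that the labels give for this step, while the study's own text gives RMA in GeneSpring. The log2 scale was inferred from the values, and the genome build and the scale of the study's filter of 100 are not given in the sources used here. RMA brings arrays to a common distribution, which can hide shifts shared by many genes. Array medians differed by at most 0.03. The number of arrays limits the precision, and p-values rest on the spread of the deposited values. Where arrays share a value, this may understate the spread between these 3 pools.

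Of 35557 probe sets, 21789 named 1 gene and gave 19938 genes (probe set with the highest mean). No probe set naming several genes held a carrier. Each gene was fitted with limma (lmFit with an intercept, eBayes, two-sided, threshold 0.05 after Benjamini-Hochberg adjustment over all genes) on the level minus each limit. The step was tested on simulated data with spreads taken from genes with 3 different values. Genes whose arrays share a value, the background limit and the alternative prior were not part of that test. It therefore does not bear on the calls that rest on them. Alternatives were other limits, other rules for probe sets, other normalizations, other priors (the alternative prior of the text takes its variance from genes with 3 different values) and leaving out each array. Carriers were chosen by family name and lists by known function, both with earlier results of these data known. Every carrier is named, and of each related list up to 6 measured genes in written order and up to 3 on the other side of the background limit. Exceptions were Arrdc3, Arrdc4 and Vps35 of the control of glucose carriers and Gpt of glutamine use, whose levels are not printed. Markers of other cells are named where their list stands beside a result. Listed genes without a probe set of their own are not analysed here. Promoter sequences were those of RefSeq (GRCm38.p6) and matched 41 of 54 carriers, too few to compare promoter composition between carriers. Protein sequences were not used here. Motifs were searched on both strands, and CACGTG holds the hypoxia response core on each. Fits used limma 3.58.1 in R 4.3.3. Tables and plots were made in Python 3.11.15 (pandas 2.3.3, numpy 2.4.6, matplotlib 3.10.9).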

Additional observations from a re-analysis of the deposited data

How the results depend on the processing

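The counts of carriers above 100 units (51, range 34 to 53) and the other counts not named here stayed within 1.5 times under every alternative, and 3 arrays with 25 of 54 carriers at identical values limit what the errors can show. At 50 units 1 carrier and at 200 units 17 were below the limit, against 3 at 100. With the 90th percentile of the receptor probe sets as the background limit 34 carriers were above it (63.0%, against 63.4% of all genes), 17 below (31.5%, against 32.0%) and 35 at or above it in all arrays, so that the lower share of carriers above the main limit was not seen there. With the 99th percentile 7 were above (12.96%, against 30.1%) and 8 at or above it in all arrays. Without 1 array the carriers with a range over 0.3 numbered 2 to 4, and those above the background limit 16 to 17. Of the 20 carriers above the background limit 5 lost the call without some array, and of the 31 below it 7 did. The 25 carriers at identical values kept their level and had no spread whichever array was left out, so this step did not test their calls. With 2 arrays left a call also hinged on whether that pair was identical. Without array 2, Slc2a9 gained a call at -0.14 from the limit, while Slc38a2 lost its call at 3.55. Single carriers changed sides as follows, as log2 level minus the limit, which moved by construction. At 50 units these were Slc38a11 (0.27) and Slc7a11 (0.37). At 200 units these were Slc1a6 (-0.40), Slc2a12 (-0.88), Slc2a5 (-0.80), Slc38a1 (-0.92), Slc38a4 (-0.91), Slc3a1 (-0.31), Slc43a2 (-0.60), Slc7a13 (-0.76), Slc7a14 (-0.11), Slc7a15 (-0.61), Slc7a2 (-0.86), Slc7a3 (-0.42), Slc7a8 (-0.58) and Slc7a9 (-0.59). With the lowest probe set it was Slc38a1 (-0.14) against 100 units. With the 90th percentile these were Slc1a2 (0.13), Slc1a3 (0.20), Slc1a4 (0.22), Slc1a5 (0.10), Slc1a7 (0.23), Slc2a3 (0.0899), Slc36a2 (0.26), Slc38a3 (0.19), Slc38a5 (0.27), Slc38a8 (0.16), Slc7a4 (0.29) and Slc7a5 (0.33). With the 99th percentile these were Slc1a1 (-0.36), Slc2a2 (-0.67), Slc2a4 (-0.57), Slc2a7 (-0.60), Slc2a8 (-0.0774), Slc36a1 (-0.18), Slc38a10 (-0.12), Slc38a6 (-0.38), Slc38a7 (-0.39), Slc7a10 (-0.55) and Slc7a6 (-0.43). No paired analysis was possible because there is 1 group.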
